A study of Mus musculus with 10 samples.

Results

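Translation factors and aminoacyl-tRNA synthetases were examined in RNA-seq of a mouse embryonic stem cell line (strain label C57BL6X129S6F1) grown in 5 culture conditions, with 2 libraries each. Members were chosen by symbol alone: names of eukaryotic initiation factors (Eif and a digit), of elongation factors (Eef1 or Eef2 and what follows), and of synthetases, whose symbols run from Aars to Yars with mitochondrial forms ending in 2. A gene was kept at 1 TPM or more in at least 2 of the 10 libraries. TPM, a level scaled to a common library total, is given per transcript length, so levels of different genes can be set side by side. All 75 matching symbols of the usable part of the table passed, among 14578 table lines tested in all. They comprised 17 cytosolic synthetases, 12 mitochondrial synthetases, 30 initiation factors, 7 regulators of initiation, 3 elongation factors, 4 modifiers of elongation factors and 2 further genes, Eif1ad and Eef1e1. The members nearest to the threshold were Wars2, at 1.02 to 2.22 TPM, and Eef1a2, which reached 1 TPM in 3 libraries only; no matching symbol lay below it.

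The SL cultures had KO-DMEM with 15% FBS and 1000 IU of mLIF. The other 4 conditions used N2B27, a serum-free medium, with the same LIF and 3 µM Chir99021, a GSK3 inhibitor. To these, 2iL and 2iL-F added the MEK inhibitor PD0325901 at 1 µM, A2iL added CGP77675, a Src family kinase inhibitor, at 1.5 µM, and LCDM added Dim and Mih at 2 µM each. Feeder cells are given for all conditions except 2iL-F. The labels number the libraries of each condition 3 and 5 and do not say whether these were separate cultures, so p-values measure the spread between libraries, which may be technical.

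Each synthetase couples its amino acid to the matching tRNA, with a cytosolic set for the translation of nuclear messages and a mitochondrial set for those made in the organelle. Initiation factors bring the small ribosomal subunit, the initiator tRNA (eIF2, recharged by eIF2B) and the capped message (eIF4E, eIF4G and the helicase eIF4A) together on the eIF3 scaffold, and elongation factors then deliver charged tRNAs and move the ribosome. Stress kinases of the Eif2ak family phosphorylate eIF2, which lowers general initiation and raises the transcription factor ATF4, whose known targets include genes of amino acid supply and several cytosolic synthetases. The 4E-binding protein Eif4ebp1, held in check by mTORC1, blocks eIF4E.

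Some facts of the table bear on all values. In the upper part of the table, symbols of broadly expressed and of tissue-restricted families could be told apart by the values on their own lines (area under the curve 0.989), but farther down this held for the values 1 line below (0.978, against 0.541 for their own). Members were therefore read from the upper part, which holds 7962 of the tested lines, and 31 matching symbols of lower lines, among them Eef1a1, Eif4a1, Eif4g1, Eif5a, Iars, Mars and Sars, were not analysed here. The 36 fibroblast markers in the named lines summed to 6209 and 6522 TPM in SL, 1004 and 1062 in 2iL, 3365 and 3285 in A2iL, 1296 and 1278 in LCDM, and 5336 and 5132 in 2iL-F. In 2iL, 12 of the 36 reached 1 TPM and 7 were listed at 0 in both libraries, with the collagen Col1a1 at 0.200 and 0.264 TPM, against 1058 and 974 in 2iL-F. This goes against the labels, which give feeders to 2iL and none to 2iL-F; both names below mean the libraries so labelled. The 12 embryonic stem cell markers in the named lines summed to 2259 to 4174 TPM, lowest in both SL libraries. The part of the feeder RNA in the member values was not tested. In bulk RNA, fewer cells of a type and less RNA per cell cannot be told apart.

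Levels were compared as log2(TPM + 1) with limma, and a gene is called higher or lower at a Benjamini-Hochberg adjusted p below 0.05 over all 14578 lines; fold changes are on that scale unless a ratio of mean TPM is named. Nearly every member differed somewhere among the 5 conditions: 71 of 75 passed the test of any difference, as did 90.1% of all lines. Eprs, Farsb, Lars2 and Eef1akmt2 did not pass. Differences were therefore the rule in these data, and the members are read by direction and size against the share of all lines called the same way. The 4 comparisons with SL share the SL libraries.

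The medians of cytosolic synthetases and of initiation factors moved in opposite directions away from SL, though single members went either way. The median cytosolic synthetase stood 0.24 and 0.39 above its SL mean in the 2iL libraries, 0.07 and 0.15 in A2iL, 0.25 and 0.24 in LCDM, and 0.10 in both 2iL-F libraries. The median initiation factor stood at -0.41 and -0.21 in 2iL, -0.25 and -0.22 in A2iL, -0.05 and -0.10 in LCDM, and -0.33 and -0.30 in 2iL-F. In all 8 libraries outside SL the synthetase median was thus positive and the initiation factor median negative, while all lines tested had medians of -0.04, -0.07, -0.00 and -0.08 in 2iL, A2iL, LCDM and 2iL-F. The gap between both medians was 0.65 and 0.60 in 2iL and 0.32 and 0.37 in A2iL. It was 0.30 and 0.34 in LCDM and 0.43 and 0.40 in 2iL-F. The SL values, -0.01 and 0.01, are symmetric about 0 by construction, because the SL mean is the reference for every library. The gap was widest in 2iL, whose lower library lay above every library of the other conditions, and the A2iL and LCDM libraries overlapped. The fibroblast marker sum was lowest in 2iL, where the gap was widest, and highest in SL, the reference. Between these, 2iL-F had a higher sum and a wider gap than LCDM. The part of feeder RNA in the gap was not tested.

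**Figure D1:**
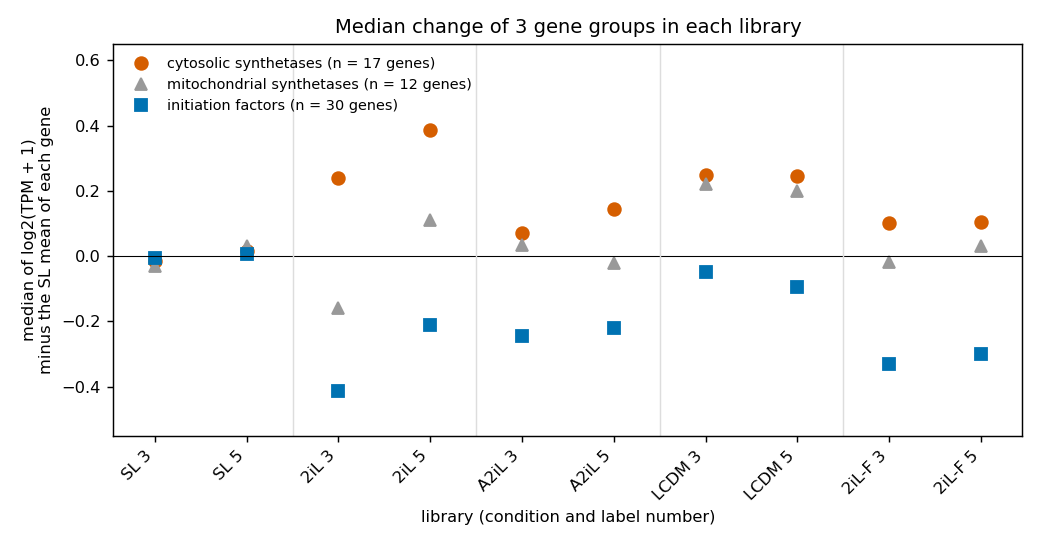
Each point is the median, over the genes of a group, of log2(TPM + 1) minus the gene's SL mean in 1 library. Cytosolic synthetases (circles) lie above 0 and initiation factors (squares) below 0 in all 8 libraries outside SL, and mitochondrial synthetases (triangles) lie above 0 in both libraries of LCDM and of no other condition.

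The same contrast appeared in summed TPM. The 17 cytosolic synthetases together held 1980 and 2020 TPM in SL, 2874 and 3046 in 2iL, 2232 and 2221 in A2iL, 2467 and 2430 in LCDM, and 2188 and 2164 in 2iL-F. The 30 initiation factors held 4006 and 4064 TPM in SL, 3349 and 3614 in 2iL, 3748 and 3693 in A2iL, 3963 and 3850 in LCDM, and 3476 and 3484 in 2iL-F. SL had the lowest synthetase sum and the highest initiation factor sum. Its libraries did not overlap with those of any other condition in either sum. Median levels did not show the contrast in LCDM. There the median log2(TPM + 1) of synthetases minus that of initiation factors was -0.16 and -0.10, against -0.08 and -0.07 in SL. In the remaining conditions it lay above SL, from -0.03 to 0.11.

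In 2iL, 13 of 17 cytosolic synthetases were higher than in SL and 2 were lower, where 36.7% of all lines were higher and 40.9% lower. Of 30 initiation factors, 3 were higher and 23 lower. With changes of at least 0.5, 5 synthetases were higher and 2 lower, and 2 initiation factors were higher and 11 lower. Of all lines, 25.0% and 29.1% were higher and lower by that much, so the count of higher synthetases lay near its share. With median-of-ratios scaling, 1 synthetase was lower by 0.5. Without the 2iL library numbered 3, 5 initiation factors were higher. With every library rescaled to the sum of lines that do not follow the fibroblast markers, an alternative chosen after seeing the data, 11 synthetases were higher and 2 lower, and 3 initiation factors were higher and 23 lower.

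In A2iL, 8 synthetases were higher and 5 lower than in SL, and 5 initiation factors were higher and 16 lower. Among all lines 21.9% were higher and 31.9% lower, so the count of lower synthetases lay near the background. Changes of at least 0.5 were found for 2 higher synthetases and for 2 lower initiation factors, against 10.8% and 14.5% of lines. The synthetase count lay near its share and the initiation factor count below its own. Without the A2iL library numbered 3 there was 1 such synthetase, and of the 30 initiation factors 0 were higher by 0.5 as deposited, 2 after median-of-ratios scaling or quantile normalisation, and 1 without the SL library numbered 3. The calls of this comparison lean on the scaling: 41.7% of member calls and 40.7% of all calls were higher as deposited, and 53.1% and 51.3% after median-of-ratios scaling. The count of higher initiation factors fell to 2 without either SL or either A2iL library, and to 3 without either 2iL-F library.

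In LCDM, 10 synthetases were higher and 2 lower, and 4 initiation factors were higher and 11 lower. Among all lines 32.2% were higher and 33.7% lower, so the count of lower initiation factors lay near the background. At 0.5 or more, 4 synthetases were higher and none of the 17 lower, and 1 initiation factor was higher and 2 were lower, against 18.0% and 20.9% of lines. The count of higher synthetases at this size lay not far from its share, and that of lower initiation factors below its own. Without either 2iL library, whose spread enters the fit, 7 initiation factors were higher. In 2iL-F, 8 synthetases were higher and 5 lower, and 5 initiation factors were higher and 23 lower, where 28.1% of lines were higher and 37.3% lower. At 0.5 or more, 2 synthetases were higher and 2 lower and 1 initiation factor was higher and 7 were lower, against 16.9% and 20.5% of lines. Both synthetase counts lay below these shares, and the count of lower initiation factors lay near its own. With median-of-ratios scaling 1 synthetase was lower by that much. The calls of 2iL-F against SL also lean on the scaling: 33.3% of member calls and 43.0% of all calls were higher as deposited. After median-of-ratios scaling these shares were 41.7% and 49.7%. Fits of A2iL and LCDM against SL without the 2iL and 2iL-F libraries gave 8 and 12 higher synthetases, and 17 and 14 lower initiation factors.

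**Figure D2:**
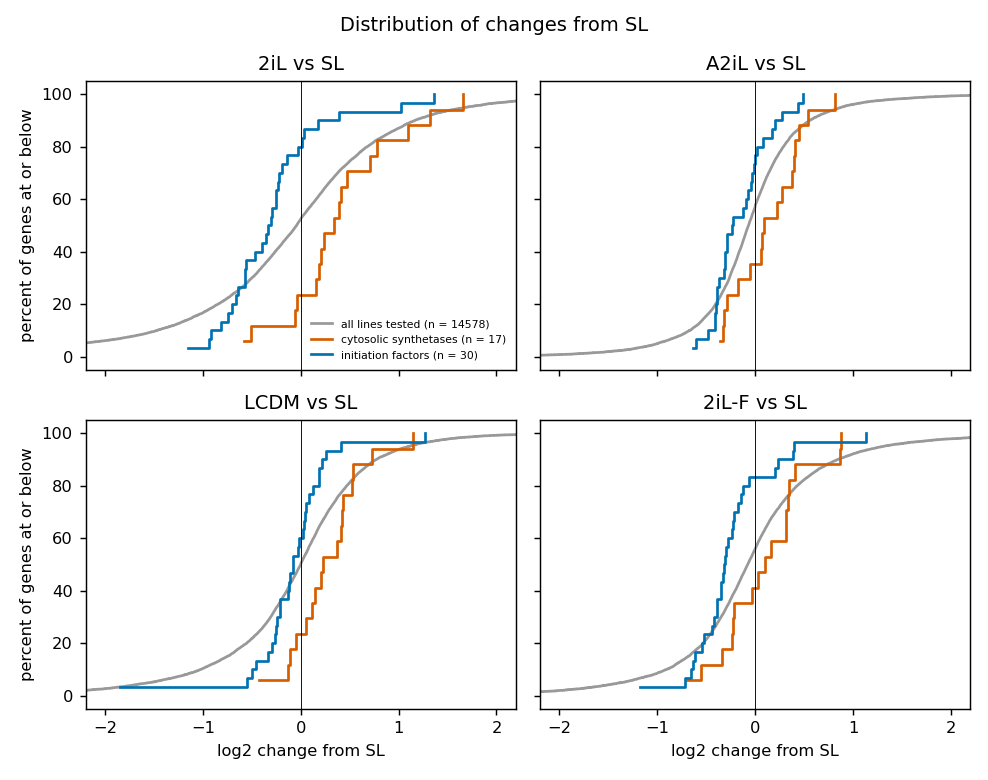
Each curve gives the percent of genes (vertical axis) at or below a log2 change from SL (horizontal axis), for all 14578 lines, the 17 cytosolic synthetases and the 30 initiation factors. In every panel the synthetase curve runs mostly to the right of the grey curve; that of the initiation factors runs mostly to its left between -0.5 and 0.5.

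Counted by library rather than by test, both SL libraries lay above the other 8 for 14 of 30 initiation factors and for 2 of 17 cytosolic synthetases, where 24.8% of all lines had that order. Both SL libraries lay below the other 8 for 9 synthetases and 3 initiation factors, against 18.0% of lines. Both 2iL libraries lay above the other 8 for 8 synthetases and no initiation factor, against 20.8% of lines, and below the other 8 for 9 initiation factors and no cytosolic synthetase, against 22.5%.

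Among the cytosolic synthetases, the alanyl enzyme Aars had the widest range. Aars (chromosome 8, chr8:111033144-111057664 in mm10, GENCODE vM21) stood at 111 and 117 TPM in SL, 365 and 362 in 2iL, 159 and 153 in A2iL, 189 and 191 in LCDM, and 213 and 205 in 2iL-F. The libraries of no 2 conditions overlapped, and the order was SL, A2iL, LCDM, 2iL-F, 2iL. By mean TPM, Aars was 3.18 times as high in 2iL as in SL. The log2 change was 1.66 in 2iL (SE 0.044, adjusted p = 4.2e-09), 0.86 in 2iL-F, 0.73 in LCDM and 0.45 in A2iL (adjusted p = 5.1e-07, 1.5e-06 and 5.3e-05). Aars shares 1326 of its 9282 exon bases with Exosc6 on the same strand.

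The cysteinyl enzyme Cars was second. Cars (chr7:143557230-143600090) stood at 38.0 and 40.7 TPM in SL, 101 and 98.1 in 2iL, 69.7 and 70.5 in A2iL, 88.2 and 88.0 in LCDM, and 72.1 and 73.5 in 2iL-F. SL was lowest and 2iL highest, with LCDM next and A2iL just below 2iL-F. Its log2 change was 1.32 in 2iL, 1.14 in LCDM, 0.87 in 2iL-F and 0.82 in A2iL, with SE 0.046 in each (adjusted p = 2.4e-08, 1.4e-07, 6.5e-07 and 2.2e-06).

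The glycyl enzyme Gars, which also charges mitochondrial tRNA, had 250 and 248 TPM in SL, 501 and 568 in 2iL, 320 and 326 in A2iL, 342 and 324 in LCDM, and 314 and 319 in 2iL-F. Only 2iL stood well apart, with a change of 1.10 (SE 0.060, adjusted p = 3.9e-07); the changes of 0.37, 0.42 and 0.35 in A2iL, LCDM and 2iL-F were also called. The asparaginyl enzyme Nars had 310 and 313 TPM in SL and 529 and 542 in 2iL, with 382 to 424 in the 6 others. The tyrosyl enzyme Yars had 51.4 and 55.2 TPM in SL and 85.9 and 89.1 in 2iL, with LCDM next at 77.7 and 78.0. Nars rose by 0.78 and Yars by 0.70 in 2iL (SE 0.038 and 0.051). The threonyl enzyme Tars rose by 0.47, 0.40 and 0.34 in 2iL, A2iL and 2iL-F, from 70.5 and 72.9 TPM in SL to 89.8 or more in these 6 libraries.

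The glutaminyl enzyme Qars took another order. It stood at 51.6 and 52.3 TPM in SL, 61.6 and 70.9 in 2iL, 79.1 and 73.5 in A2iL, 77.2 and 73.0 in LCDM, and 69.3 and 69.0 in 2iL-F. A2iL and LCDM were highest and overlapped, and the changes from SL were 0.54 and 0.52 (SE 0.070). The valyl enzyme Vars was high in 2iL (211 and 203 TPM) and LCDM (207 and 206), and its A2iL and 2iL-F libraries (145 to 164) overlapped with SL (151 and 159).

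Not all synthetases went that way. The arginyl enzyme Rars (chr11:35808381-35834506) stood at 131 and 134 TPM in SL, 83.6 and 93.3 in 2iL, 109 and 101 in A2iL, 98.5 and 97.6 in LCDM, and 79.3 and 83.9 in 2iL-F. SL was above the other 8 libraries, and 2iL and 2iL-F were lowest. Rars fell by 0.58, 0.33, 0.43 and 0.69 on the log2 scale in 2iL, A2iL, LCDM and 2iL-F (SE 0.062, adjusted p = 3.2e-05, 0.0022, 0.00033 and 1.8e-05). The histidyl enzyme Hars had 135 and 137 TPM in SL, 91.3 and 99.3 in 2iL, 109 in both A2iL libraries, 121 and 126 in LCDM, and 89.3 and 94.8 in 2iL-F, and fell by 0.51, 0.32 and 0.56 in 2iL, A2iL and 2iL-F. In LCDM its change of -0.14 had an adjusted p of 0.049, and the call was lost when any 1 of the 8 libraries of SL, A2iL, LCDM and 2iL-F was left out (-0.11 to -0.16). The ratio of Aars to Hars in TPM thus went from 0.822 and 0.858 in SL to 3.99 and 3.65 in 2iL, with 1.45 and 1.41 in A2iL, 1.56 and 1.51 in LCDM, and 2.39 and 2.16 in 2iL-F.

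A few enzymes split the N2B27 conditions. The lysyl enzyme Kars stood at 182 and 181 TPM in SL, 205 and 209 in 2iL, 146 and 151 in A2iL, 186 and 189 in LCDM, and 144 and 143 in 2iL-F. 2iL lay above SL and LCDM only just above it, while A2iL and 2iL-F lay below SL by 0.29 and 0.34 (SE 0.039). Wars, the tryptophanyl enzyme, had 89.4 and 94.1 TPM in 2iL, 79.3 and 85.1 in SL and 69.7 to 80.8 in the others, and Farsa, a subunit of the phenylalanyl enzyme, was lower in A2iL by 0.36 (64.6 and 66.5 TPM in SL, 52.8 and 49.3 in A2iL). Eprs, the fused glutamyl-prolyl enzyme, ranged from 48.0 to 63.9 TPM and had its highest value in 1 of the 2iL libraries only. Farsb, the other phenylalanyl subunit, ranged from 73.7 to 98.6 TPM.

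**Figure D3:**
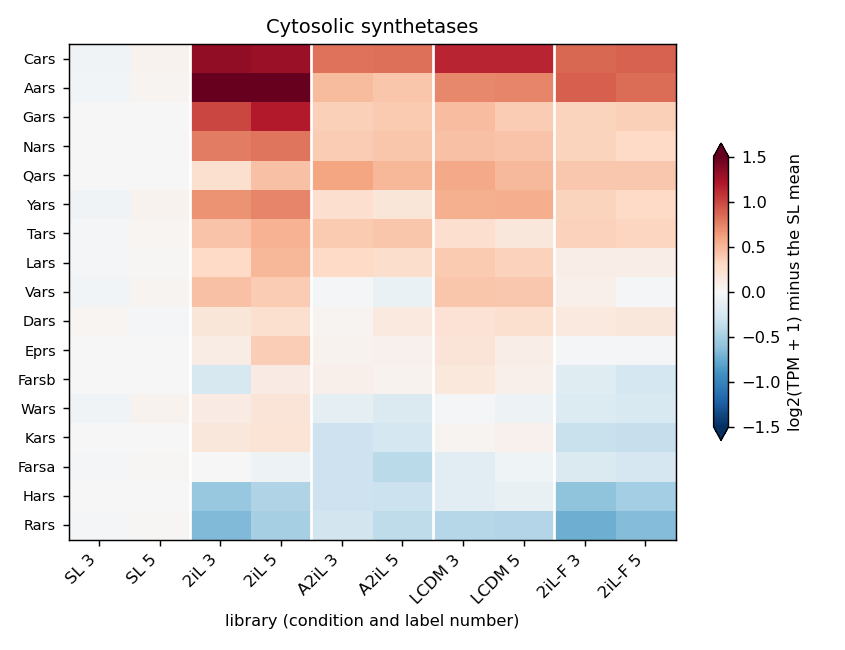
Colour gives log2(TPM + 1) minus the SL mean for each cytosolic synthetase (rows) in each library (columns), red for higher and blue for lower. Cars and Aars are red in all 8 libraries outside SL, and Hars and Rars are blue.

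Because the ATF4 and C/EBP composite element has the core TGATGNAA, promoters were searched for it. RefSeq start-site windows (GRCm38.p6, 250 bases before to 50 after the start, 300 in all) were at hand for 58 of 75 members; the 17 others, Cars, Nars, Hars and Rars among them, have no window here. The core, on either strand, lay in 3.97% of all 32851 windows. It lay in 4 of 10 cytosolic synthetase windows (Aars, Gars, Tars and Yars), in none of 11 windows of 10 mitochondrial synthetases, and in 1 of 28 windows of 24 initiation factors (Eif2s3x); 1 window of Eef2k held it as well. All 4 synthetases with a match were higher in 2iL than in SL, and Eif2s3x had 167 and 160 TPM in SL and 141 and 144 in 2iL. CACGTG, the E-box core of basic helix-loop-helix factors such as MYC, lay in 7.15% of all windows, in 3 of 10 cytosolic synthetases (Aars, Farsb and Tars) and in 4 of 28 initiation factor windows. A match is a run of letters, not a bound site. Of the 6 cytosolic synthetases with a window and no match, 4 (Dars, Eprs, Kars and Qars) were higher in 2iL as well; the call of Eprs was lost without either SL library or the 2iL library numbered 5 (0.11 to 0.24). The stretches around the TGATGNAA matches are shown for the 4 synthetases, all called higher in 2iL, and for the initiation factor with a match, which was called lower; capitals mark the match, read on the gene's strand from 5′ to 3′, where a match on the other strand appears as its reverse complement. They run from 140 to 81 bases before the start for Aars (chr8:111033702-111033761, plus strand; a further match lies at 10 to 17 after it), 60 to 1 before it for Gars (chr6:55037941-55038000, plus) and Tars (chr15:11399659-11399718, minus), 10 before to 20 after it for Yars (chr4:129189893-129189922, plus), and 125 to 66 before it for Eif2s3x (chrX:94212717-94212776, minus).
Aars: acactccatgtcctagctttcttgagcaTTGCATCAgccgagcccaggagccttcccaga
Gars: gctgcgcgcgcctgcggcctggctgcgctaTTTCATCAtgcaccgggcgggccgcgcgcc
Tars: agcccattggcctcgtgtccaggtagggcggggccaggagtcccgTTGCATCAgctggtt
Yars: cgacgagctcagcTGATGCAAcccgacggg
Eif2s3x: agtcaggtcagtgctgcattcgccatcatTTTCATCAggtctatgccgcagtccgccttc

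The mitochondrial synthetases had counts near the background in 2iL, where 5 of 12 were higher and 5 lower than in SL (36.7% and 40.9% of all lines), with a median change of -0.03. In A2iL 2 were higher and 2 lower (21.9% and 31.9% of lines). In LCDM 6 were higher and none of the 12 lower, against 32.2% and 33.7% of lines, and in 2iL-F none of the 12 was higher and 5 were lower, against 28.1% and 37.3%. Both LCDM libraries lay above the other 8 for 5 of the 12 (11.1% of all lines). Their summed level was 269 and 263 TPM in LCDM and 208 to 236 TPM in the other 8 libraries.

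Aars2, the mitochondrial alanyl enzyme, had 27.3 and 28.5 TPM in SL, 37.6 and 37.3 in 2iL, 34.1 and 33.8 in A2iL, 44.0 and 45.2 in LCDM, and 30.1 and 29.8 in 2iL-F. LCDM was highest, with a change of 0.66 (SE 0.045, adjusted p = 3.1e-06), and 2iL followed at 0.41. Fars2, for phenylalanine, rose by 0.57 in 2iL, 0.40 in A2iL and 0.65 in LCDM from 4.91 and 5.15 TPM in SL, and Nars2, for asparagine, rose by 0.57 and 0.52 in 2iL and LCDM from 2.74 and 3.26 TPM. Rars2 fell by 0.60 and 0.40 in 2iL and 2iL-F, from 33.0 and 33.4 TPM in SL to 21.0 and 22.1 in 2iL and 26.2 and 23.6 in 2iL-F. Tars2 was lowest in 2iL-F (11.5 and 11.3 TPM, 16.7 and 16.6 in SL), a fall of 0.51. Yars2 had 27.3 TPM in both SL libraries and 18.9 to 24.6 in the other 8.

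The initiation factors were also counted by the number in their names. In 2iL, where 40.9% of all lines were lower than in SL, all 2 Eif1, 4 Eif2 and 3 Eif5 or Eif6 genes were lower, as were 7 of 10 Eif3 and 5 of 6 Eif4 genes, while Eif2b had 2 higher and 2 lower of 5. The 4 Eif2 genes are Eif2s1 and Eif2s3x, subunits of the eIF2 complex, and Eif2a and Eif2d, which encode separate factors. In 2iL-F the lower counts were 2 of 2, 3 of 4, 3 of 3, 8 of 10, 4 of 6 and 3 of 5 in the same order, against 37.3% of lines. In A2iL they were 1, 2, 3, 3, 4 and 3 (31.9% of lines), and in LCDM 1, 1, 1, 3, 3 and 2 (33.7%), so that the Eif3 counts in these conditions, 3 of 10, lay near the background.

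The eIF2 complex carries the initiator tRNA. Its alpha subunit Eif2s1, the one that stress kinases phosphorylate, had 115 and 114 TPM in SL, 80.3 and 93.8 in 2iL, 87.9 and 88.6 in A2iL, 109 and 103 in LCDM, and 78.8 and 79.4 in 2iL-F. It fell by 0.39, 0.37 and 0.52 in 2iL, A2iL and 2iL-F (SE 0.068), and LCDM lay between these and SL. Eif1b, a start-codon selection factor, stood at 57.5 and 53.8 TPM in SL, 34.8 in both 2iL libraries and 35.0 and 36.9 in 2iL-F, and fell by 0.62 in 2iL-F.

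The subunits of eIF2B, the exchange factor that recharges eIF2 with GTP, parted. The catalytic subunit gene Eif2b5 (chr16:20498817-20509323) had 80.6 and 82.6 TPM in SL, 157 and 177 in 2iL, 90.5 and 94.2 in A2iL, 112 and 105 in LCDM, and 179 and 180 in 2iL-F. Both conditions with PD0325901 lay far above the rest: the change from SL was 1.02 in 2iL and 1.13 in 2iL-F (SE 0.063, adjusted p = 8.3e-07 and 9.3e-07), and 0.41 in LCDM. The regulatory subunit gene Eif2b1 (chr5:124570213-124579131) went down, with 73.1 and 73.2 TPM in SL, 49.1 and 49.7 in 2iL, 51.9 and 52.2 in A2iL, 59.9 and 59.3 in LCDM, and 47.1 and 46.2 in 2iL-F. The ratio of Eif2b5 to Eif2b1 was 1.10 and 1.13 in SL, 3.19 and 3.56 in 2iL, 1.74 and 1.80 in A2iL, 1.87 and 1.77 in LCDM, and 3.80 and 3.89 in 2iL-F. It separated SL from all other conditions and both PD0325901 conditions from A2iL and LCDM, which overlapped. Eif2b2, another regulatory subunit, fell by 0.81 in 2iL (83.1 and 88.3 TPM in SL, 52.3 and 44.6 in 2iL), and Eif2b4, the delta subunit, rose by 0.39 in 2iL and 0.40 in 2iL-F from 79.1 and 77.3 TPM. Eif2b3 had 21.8 and 22.2 TPM in LCDM and 14.0 to 14.9 in A2iL and 2iL-F, with SL and 2iL between at 18.6 to 19.1.

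The eIF3 scaffold moved less. The median change of its 10 subunits from SL was -0.24 in 2iL, -0.23 in 2iL-F, -0.04 in A2iL and 0.00 in LCDM. Eif3a, the largest subunit, had 332 and 351 TPM in SL and 272 to 294 in the other 8 libraries. Eif3f went the other way, at 136 and 137 TPM in SL, 187 and 181 in A2iL and 140 to 169 in the rest, and rose by 0.43 in A2iL (SE 0.078, adjusted p = 0.0018). Eif3j1 fell by 0.70, 0.64, 0.46 and 0.66 in 2iL, A2iL, LCDM and 2iL-F from 51.3 and 53.0 TPM, but it has a near-identical copy, Eif3j2, and shares 1107 exon bases with Spg11 on the other strand, so its reads are less certain.

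The cap-binding eIF4 group held the widest changes of any initiation factors. Eif4a2 (chr16:23107444-23114136), an RNA helicase that opens the 5′ end of messages, had 112 and 107 TPM in SL, 269 and 297 in 2iL, 155 and 154 in A2iL, 271 and 261 in LCDM, and 141 and 147 in 2iL-F. 2iL and LCDM overlapped at about the same high level, with changes of 1.36 and 1.27 from SL (SE 0.055, adjusted p = 6.0e-08 and 2.2e-07), against 0.49 in A2iL and 0.39 in 2iL-F. Its relative Eif4a3, a helicase of the exon junction complex, fell by 0.57 in 2iL and 0.40 in A2iL, from 246 and 248 TPM in SL to 168 and 164 in 2iL.

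Eif4g3 (chr4:137993022-138208508), a scaffold that joins eIF4E to eIF3, had 29.1 and 31.2 TPM in SL, 17.2 and 18.1 in 2iL, 19.6 and 19.4 in A2iL, 7.70 and 7.54 in LCDM, and 12.5 and 13.1 in 2iL-F. The order was SL, A2iL, 2iL, 2iL-F, LCDM with no overlap between conditions. The fall of 1.85 in LCDM (SE 0.058, adjusted p = 4.1e-08) brought its mean TPM to 0.253 of SL, with falls of 0.74, 0.60 and 1.17 in 2iL, A2iL and 2iL-F. Eif4g2, a scaffold that lacks the eIF4E site, was lowest in 2iL: 245 and 253 TPM in SL, 101 and 123 in 2iL, 187 and 186 in A2iL, 177 and 164 in LCDM, and 166 and 174 in 2iL-F. It fell by 1.15 in 2iL (SE 0.084, adjusted p = 2.4e-06) and by 0.41, 0.55 and 0.55 in A2iL, LCDM and 2iL-F.

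Eif4e itself, the cap-binding protein, had 63.9 and 65.1 TPM in SL, 48.4 and 55.7 in 2iL, 50.3 and 47.4 in A2iL, 60.3 and 61.7 in LCDM, and 48.5 and 47.4 in 2iL-F. It fell by 0.31, 0.40 and 0.42 in 2iL, A2iL and 2iL-F (SE 0.067), and LCDM lay just below SL at -0.08, a change that was not called. Eif4e2, a relative that competes for the cap, split 2iL from 2iL-F, at 28.9 and 26.8 against 51.4 and 50.4 TPM, with 44.6 and 43.4 in SL.

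**Figure D4:**
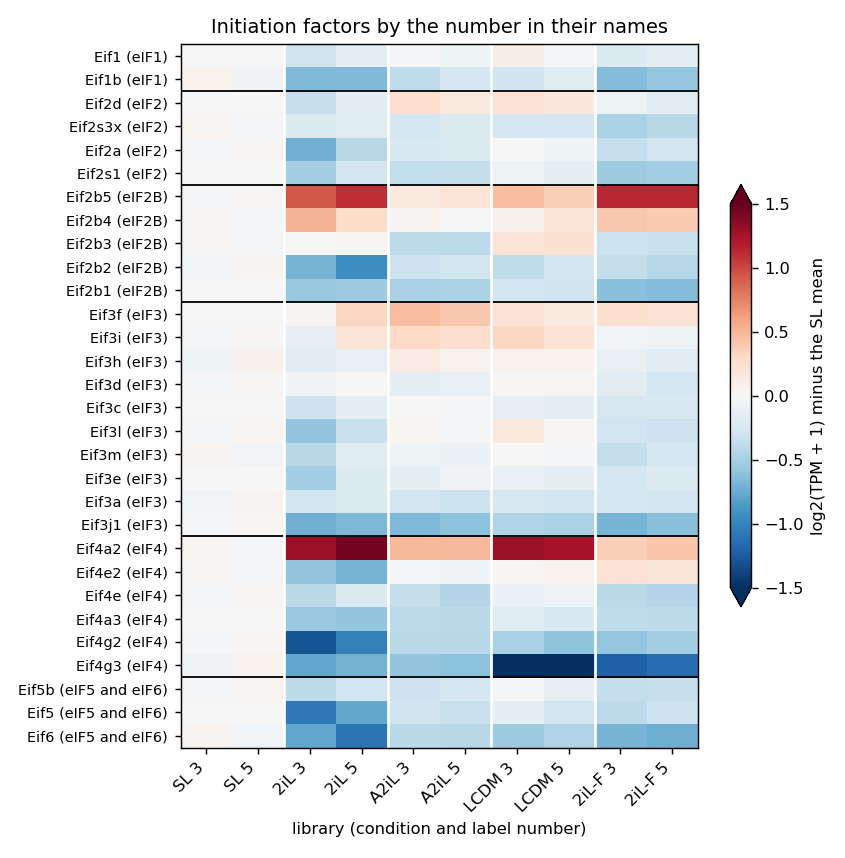
Colour gives log2(TPM + 1) minus the SL mean for each of the 30 initiation factors (rows, grouped by the number in their names) in each library (columns), red for higher and blue for lower. Blue prevails in 2iL and 2iL-F, Eif2b5 and Eif4a2 are the deepest red, and Eif4g3 in LCDM is the deepest blue.

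Of the late initiation factors, Eif5 and Eif6 were lowest in 2iL, and Eif5b, which joins the subunits, had 60.9 and 63.6 TPM in SL and 47.2 to 51.6 in 2iL, A2iL and 2iL-F, where 2iL overlapped with both others. Eif5, which triggers GTP hydrolysis by eIF2, had 95.1 and 93.9 TPM in SL and 44.5 and 55.3 in 2iL, a fall of 0.92 (SE 0.094, adjusted p = 2.3e-05), with 71.6 to 85.7 TPM in the other 6 libraries. Eif6, which keeps free large subunits apart, had 222 and 209 TPM in SL, 125 and 99.8 in 2iL, 162 and 161 in A2iL, 149 and 155 in LCDM, and 132 and 130 in 2iL-F. SL was above the other 8 libraries, and the falls were 0.94, 0.41, 0.50 and 0.71.

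Among the regulators of initiation, Eif4ebp1 (chr8:27260329-27276674), the inhibitor of eIF4E, had 279 and 262 TPM in SL, 998 and 762 in 2iL, 345 and 344 in A2iL, 404 and 458 in LCDM, and 513 and 486 in 2iL-F. Every library outside SL was above SL, and the 2iL libraries were highest and farthest apart from each other. The change from SL was 1.69 in 2iL (SE 0.11, adjusted p = 1.5e-06), 0.67 in LCDM and 0.88 in 2iL-F, and 0.35 in A2iL (adjusted p = 0.030), where the call was lost without any of the SL or A2iL libraries (0.31 to 0.40). Against its partner Eif4e, the ratio in TPM was 4.37 and 4.02 in SL, 20.6 and 13.7 in 2iL, 6.87 and 7.26 in A2iL, 6.70 and 7.43 in LCDM, and 10.6 and 10.3 in 2iL-F. Eif4ebp2, a second 4E-binding protein, was highest in LCDM at 148 and 140 TPM, with 105 and 114 in SL, and rose there by 0.40.

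The 4 kinases that phosphorylate eIF2 did not move as a set. Eif2ak3 (PERK), which senses stress in the endoplasmic reticulum, had 6.71 and 6.86 TPM in SL, 14.0 and 16.3 in 2iL, 7.26 and 8.72 in A2iL, 9.04 and 7.50 in LCDM, and 10.9 and 9.97 in 2iL-F. It rose by 1.05 in 2iL and 0.55 in 2iL-F (SE 0.11, adjusted p = 3.4e-05 and 0.0025). Eif2ak4 (GCN2), which senses uncharged tRNA, had 7.53 and 7.93 TPM in SL, 11.9 and 13.3 in 2iL, 9.10 and 9.41 in A2iL, 11.8 and 10.9 in LCDM, and 11.6 and 11.3 in 2iL-F, and rose by 0.64, 0.50 and 0.51 in 2iL, LCDM and 2iL-F (SE 0.073). Its rise in A2iL was also called, a call lost without any of the SL or A2iL libraries (0.20 to 0.27). Eif2ak1 (HRI), the heme-regulated kinase, went down in all 4 conditions, from 30.6 and 33.1 TPM in SL to 17.2 and 18.8 in 2iL, by 0.79, 0.30, 0.42 and 0.41. Eif2ak2 (PKR), activated by double-stranded RNA, had 18.1 and 17.2 TPM in SL, 8.97 and 11.0 in 2iL, 19.4 and 19.8 in A2iL, 13.7 and 11.7 in LCDM, and 20.9 and 22.7 in 2iL-F. It was lower in 2iL by 0.77 and in LCDM by 0.45. In 2iL-F it was called higher, a call lost without any of the SL or 2iL-F libraries (0.23 to 0.35). Fibroblast marker sums were lowest in 2iL and LCDM and highest in SL, where Eif2ak2 lay below A2iL and 2iL-F. The part of feeder RNA in Eif2ak2 was not tested.

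Of the elongation factors, Eef2, the translocase, was the most abundant member at 2270 and 2461 TPM in SL, 2904 and 3047 in 2iL, 3370 and 3171 in A2iL, 3033 and 3056 in LCDM, and 2858 and 2704 in 2iL-F. SL lay below the other 8 libraries, with changes of 0.33, 0.47, 0.37 and 0.23; those in 2iL and 2iL-F were not called after quantile normalisation (0.14 and 0.19), and that in 2iL-F was also lost without the library numbered 3 of SL (0.18) or of 2iL-F (0.19). Eef1b2, an exchange factor of eEF1A, fell by 0.34 in 2iL and 0.25 in 2iL-F, from 568 and 583 TPM in SL to 428 and 486 in 2iL and 483 and 487 in 2iL-F. Eef1a2, the eEF1A form of muscle and neurons, was near the limit of detection, at 1.91 and 1.66 TPM in SL, listed at 0 in both 2iL libraries and at 0.219 to 1.19 TPM in the 6 others.

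Of the 4 enzymes that modify elongation factors, 3 passed the test of any difference. Eef1akmt1 (chr14:57549597-57571612), a lysine methyltransferase of eEF1A, had 81.1 and 80.9 TPM in SL, 10.5 and 13.1 in 2iL, 36.2 and 37.5 in A2iL, 38.7 and 35.9 in LCDM, and 27.3 and 24.4 in 2iL-F. It had the widest range of any member without a value of 0, with a highest condition mean 6.87 times the lowest. The falls were 2.69 in 2iL (SE 0.097, adjusted p = 2.9e-08), 1.61 in 2iL-F, 1.12 in A2iL and 1.10 in LCDM. Eef2k, the kinase that inactivates eEF2, went up everywhere: 5.15 and 5.67 TPM in SL, 13.0 and 12.0 in 2iL, 11.4 and 11.7 in A2iL, 8.64 and 9.40 in LCDM, and 11.0 and 10.1 in 2iL-F. The rises were 1.07, 0.97, 0.64 and 0.85 (SE 0.078, adjusted p = 2.4e-06, 1.7e-05, 0.00011 and 2.0e-05). Eef2kmt, a methyltransferase of eEF2, rose by 1.12 in 2iL and 0.73 in 2iL-F from 22.4 and 20.9 TPM in SL, with 472 exon bases shared with Alg1 on the other strand. Its smaller rises in A2iL (27.6 and 26.1 TPM) and LCDM (29.6 and 29.5 TPM) were also called. Eef1e1, a component of the multisynthetase complex that also bears an elongation factor name, had 67.6 and 61.6 TPM in SL and 46.0 and 50.8 in A2iL, where it fell by 0.41, and its LCDM and 2iL libraries (69.2 to 79.1) all lay above both SL libraries without a call. In 2iL it was called higher under some alternatives, among them robust variance (0.20) and median-of-ratios scaling (0.26).

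**Figure D5:**
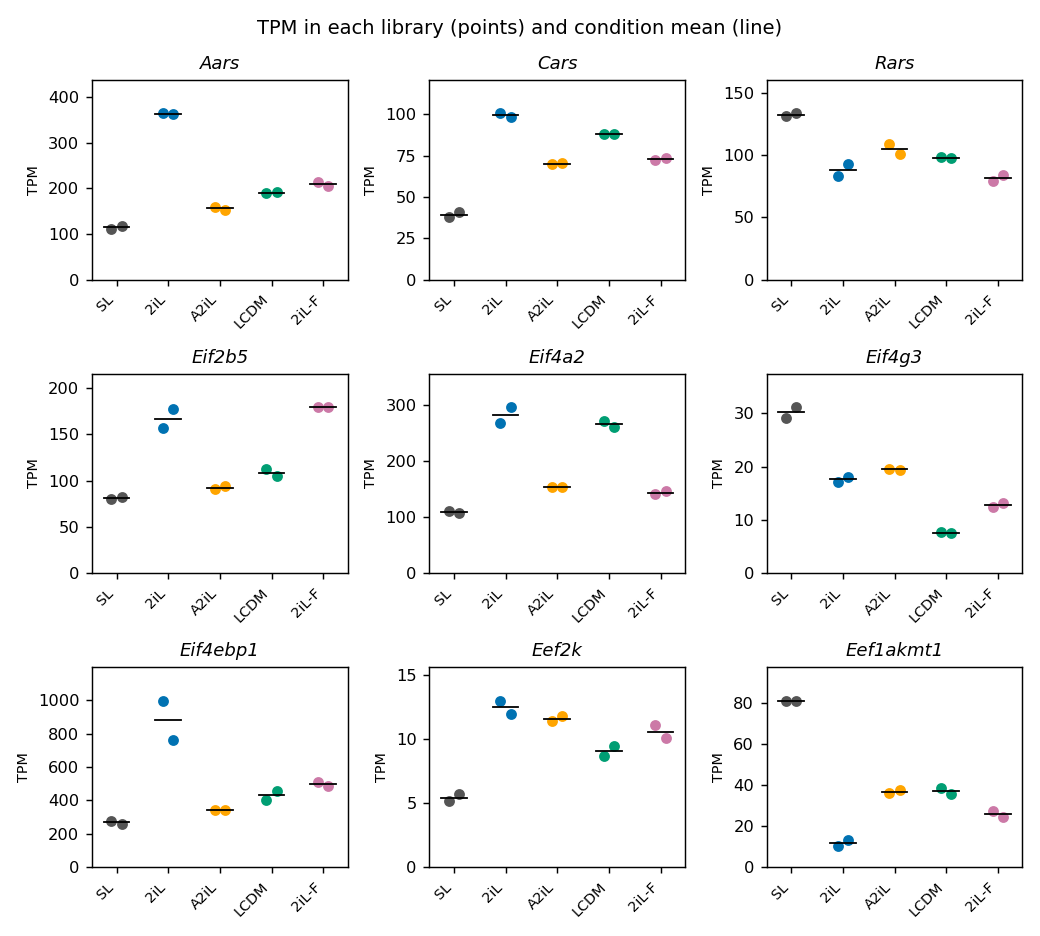
TPM of 9 members, on axes that start at 0, in each library (points) with the mean of the 2 libraries (line). Aars and Cars are lowest in SL and highest in 2iL, Rars and Eef1akmt1 are highest in SL, Eif2b5 is high in both 2iL and 2iL-F, Eif4a2 in 2iL and LCDM, and Eif4g3 is lowest in LCDM.

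2iL-F and 2iL share the same medium and inhibitors and differ, by label, in feeders. Synthetases were lower in 2iL-F: 12 of 17 cytosolic members were lower and none of the 17 higher, where 32.5% of all lines were lower and 29.2% higher. With changes of at least 0.5, 3 were lower (16.6% of lines) and none of the 17 higher (17.5%). The lower count at this size lay near its share. Aars fell by 0.80, Gars by 0.75, Kars by 0.52, Nars by 0.47 and Cars by 0.44 (SE 0.038 to 0.060, adjusted p = 1.1e-06, 1.0e-05, 6.6e-06, 1.1e-05 and 5.0e-05). Hars and Rars, which had fallen in both conditions against SL, differed by -0.05 and -0.11, not called. Among initiation factors 6 were higher and 5 lower in 2iL-F. Eif4a2 fell by 0.97 and Eif4g3 by 0.43, while Eif4e2 rose by 0.85, Eif4g2 by 0.60, Eif5 by 0.56 and Eif2b2 by 0.42; Eif2b5 differed by 0.11, not called. Eif2ak2 rose by 1.06 and Eef1akmt1 by 1.08, and Eif4ebp1 fell by 0.80. All 34 tested fibroblast markers were higher in 2iL-F than in 2iL, and the part of those cells in these differences was not tested. Without the 2iL library numbered 5, 1 cytosolic synthetase and 11 initiation factors were higher, and without the 2iL library numbered 3, 8 initiation factors were lower.

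A2iL and 2iL-F differ in the second inhibitor and, by label, in feeders, and were closer to each other. Of 75 members 32 were called, 24 higher and 8 lower in A2iL, where 22.2% of lines were higher and 23.0% lower; 2 of the 75 were higher and 2 lower by 0.5 or more, against 10.4% and 11.5% of lines. The member count was 18 without the A2iL library numbered 3 and 21 without the 2iL-F library numbered 5. Among the initiation factors 11 were higher, a count that was 4 without either of these libraries and 7 without the 2iL-F library numbered 3. Eif2b5 was lower in A2iL by 0.95 (SE 0.063, adjusted p = 6.4e-06), Aars by 0.42 and Eif4ebp1 by 0.53. Eif4g3 was higher by 0.57 and Rars by 0.36. Of the cytosolic synthetases 3 were higher and 1 lower, and the higher count was 6 without either 2iL library and 1 without the 2iL-F library numbered 3.

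Genes that work with the members were read from lists in the named lines. The integrated stress response list had 9 tested genes, of which 7 were higher and 1 lower than SL in 2iL, 8 and 1 in A2iL, 5 and 2 in LCDM, and 8 and 0 in 2iL-F, with median changes of 1.92, 0.98, 0.34 and 0.89. Of all lines, 36.7%, 21.9%, 32.2% and 28.1% were higher in these comparisons, and 40.9%, 31.9%, 33.7% and 37.3% lower. Chac1, a glutathione-degrading target of ATF4, went from 6.94 ± 0.097 TPM in SL (SD, n = 2) to 59.4 ± 4.8 in 2iL, 56.7 ± 0.039 in LCDM, 55.4 ± 3.5 in A2iL and 36.1 ± 0.056 in 2iL-F. Nupr1, a stress-induced chromatin protein, had a mean of 7.33 TPM in SL, 127 in 2iL, 46.9 in 2iL-F, 35.9 in LCDM and 31.8 in A2iL. Impact, an inhibitor of GCN2, fell by 1.28 in LCDM. The pseudokinase gene Trib3 rose by 2.79, 2.01, 1.80 and 1.79 in 2iL, A2iL, LCDM and 2iL-F.

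Amino acid synthesis and transport had 23 tested genes, of which 16 were higher and 5 lower in 2iL, 16 and 3 in A2iL, 15 and 4 in LCDM, and 15 and 7 in 2iL-F, with median changes of 0.98, 0.57, 0.46 and 0.50, where 36.7%, 21.9%, 32.2% and 28.1% of all lines were higher and 40.9%, 31.9%, 33.7% and 37.3% lower. Asparagine synthetase, Asns, rose from 132 ± 1.5 TPM in SL (SD, n = 2) to 775 ± 62 in 2iL, 549 ± 3.4 in 2iL-F, 436 ± 2.3 in A2iL and 373 ± 6.6 in LCDM. The proline synthesis gene Pycr1 rose by 2.74, 1.22, 1.50 and 1.70, and the glutamine transporter Slc1a5 by 1.31 in A2iL and 1.62 in LCDM. In 2iL-F against 2iL, 18 of the 23 were lower and 4 higher, and 5 of 9 stress response genes were lower and 3 higher, where 32.5% of lines were lower and 29.2% higher.

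Partners of the synthetases and termination factors gave small lists, read against 40.9%, 31.9%, 33.7% and 37.3% of all lines lower and 36.7%, 21.9%, 32.2% and 28.1% higher in 2iL, A2iL, LCDM and 2iL-F. Of 7 tested genes of the multisynthetase complex and of aminoacyl-tRNA proofreading, 5 were lower and none of the 7 higher in 2iL, 3 lower in A2iL, 3 lower and 2 higher in LCDM, and 4 lower in 2iL-F. Aimp2, a scaffold of that complex, fell from 88.1 ± 0.51 TPM in SL (SD, n = 2) to 46.8 ± 0.13 in 2iL, 63.8 ± 0.029 in A2iL and 61.8 ± 0.27 in 2iL-F; it shares 487 exon bases with Eif2ak1 on the other strand, which also fell. Dtd1, a deacylase that removes D-amino acids from tRNA, fell by 0.68, 0.55, 0.54 and 1.25 in 2iL, A2iL, LCDM and 2iL-F. Among 6 tested genes of termination, recycling and rescue, 1 was higher and 3 lower in 2iL, 3 were lower in A2iL and in LCDM, and 1 was higher and 5 lower in 2iL-F. The release factor Etf1 fell by 0.81, 0.33, 0.28 and 0.54, and the recycling partners Denr and Mcts1 fell by 0.72 and 0.99 in 2iL, 0.52 and 0.50 in A2iL, 0.35 and 0.65 in LCDM, and 0.78 and 0.75 in 2iL-F.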

How the data were processed

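RNA purification (Qiagen) and library construction (NEBNext Ultra) followed kits named in the labels' protocols, which state no strand marking. Reads of overlapping genes on opposite strands therefore cannot be told apart. In GENCODE vM21, 26 of 75 members share exon bases with another gene, 25 of them with a gene on the opposite strand. Per the submitters' processing notes, Bowtie2, RSEM, DESeq2 and R 3.4.2 were used with mm10; no other version is given there. The authors deposited TPM values for 20494 lines in 10 columns. Read numbers cannot be had from TPM, so the depth of each library is unknown. The listed values made up 71.0% to 73.0% of the total that TPM sum to.

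Here log2(TPM + 1) was fitted with limma 3.58.1 in R 4.3.3 (trend on, a mean per condition, all 10 libraries, 5 residual degrees of freedom), over the 14578 lines that reached 1 TPM in 2 libraries. Two-sided p-values were Benjamini-Hochberg adjusted over all lines within each of 6 pairwise comparisons and the F test over conditions; the fit was tested on simulated data. Tables and plots used Python 3.11.15, pandas 2.3.3 and matplotlib 3.10.9. Same-numbered libraries did not deviate together (r from -0.13 to 0.075 over pairs of conditions), so the numbers were not used as pairs.

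The members, gene lists and comparisons were chosen with earlier results of these data known. Changes are given, per comparison and role, for up to 6 called members with the largest rise and 6 with the largest fall (4 and 4 for groups under 15 members), for a fixed set of key factors, and for up to 4 called genes of each of 6 other lists; 1 member that this rule names is counted but not reported here. Exon overlap and promoter windows come from GENCODE vM21 and RefSeq. Alternatives covered the pseudocount, filter, scaling, quantile normalisation, the replicate block, robust variance, the lines and libraries in the fit, and each library left out.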

Additional observations from a re-analysis of the deposited data

How the results depend on the processing

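Of 242 gene changes named by the rule, 5 changed sign under some alternative, and 43 lost their call under at least 1. The sign changes were Wars2 in 2iL against SL (0.046 after quantile normalisation), Eprs in 2iL-F against SL (0.050 with median-of-ratios scaling, 0.019 after quantile normalisation), Hars in 2iL-F against 2iL (0.0060 when rescaled without the lines that follow the fibroblast markers, and -0.11 to 0.011 with libraries left out), Eef2 in 2iL-F against 2iL (0.050 after quantile normalisation) and Eif4e in A2iL against 2iL-F (-0.017 to 0.066 with libraries left out). The cause was not tested. Some counts moved by over 1.5 times. Higher initiation factors in A2iL against SL numbered 5, and 2 with no filter, 3 with the replicate block and 3 when rescaled. Lower cytosolic synthetases in LCDM numbered 2, and 1 with no filter, with robust variance and without the lines that follow the fibroblast markers, where Hars lost its call. Higher cytosolic synthetases in A2iL against 2iL-F numbered 3, and 7 after quantile normalisation. The gap between synthetases and initiation factors in A2iL was 0.34, and 0.31 after quantile normalisation. The replicate block ended no other count; it left 61, 45, 42 and 59 members called in 2iL, A2iL, LCDM and 2iL-F against SL, from 63, 48, 43 and 60.

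With 1 library left out at a time, the lone library of a condition being assumed to vary like the rest, higher initiation factors ran from 3 to 5 in 2iL, 2 to 5 in A2iL and 3 to 7 in LCDM against SL, and lower cytosolic synthetases in LCDM from 1 to 2. In 2iL-F against 2iL, higher cytosolic synthetases ran from 0 to 1, and higher and lower initiation factors from 5 to 11 and from 5 to 8. In A2iL against 2iL-F, called members ran from 18 to 42, higher cytosolic synthetases from 1 to 6 and higher initiation factors from 4 to 16. Of the counts of changes of at least 0.5, lower synthetases in 2iL ran from 2 to 1, higher synthetases in A2iL from 2 to 1 and higher initiation factors in A2iL from 0 to 1. With median-of-ratios scaling lower synthetases of that size went from 2 to 1 in 2iL and in 2iL-F, and higher initiation factors in A2iL from 0 to 2, as after quantile normalisation. Depth is unknown, so the weight of each low value is too.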

Other observations

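Of 19 tested genes of the mTORC1 axis, 12 were higher and 4 lower than SL in 2iL, 8 and 6 in A2iL, 11 and 2 in LCDM, and 8 and 4 in 2iL-F; Ddit4 and Sesn2 of this list are also in the stress response list. Of all lines, 36.7%, 21.9%, 32.2% and 28.1% were higher and 40.9%, 31.9%, 33.7% and 37.3% lower in these comparisons. Within the mTORC1 list, Ddit4 and Deptor rose by 1.92 and 1.49 in 2iL, where Ddit4 had a mean of 470 TPM (123 in SL). Deptor also rose by 0.58 and 0.85 in A2iL and LCDM. Mknk1, a kinase of eIF4E, rose by 1.34 in 2iL, 0.51 in LCDM and 0.89 in 2iL-F. Akt1s1, an mTORC1 component, fell by 1.22 in 2iL and 0.72 in LCDM. Rps6kb1, a kinase downstream of mTORC1, fell by 0.55 in 2iL-F.

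Of 11 tested mitochondrial translation factors, 4 were higher and 4 lower in 2iL, and 2 and 5 in A2iL. In LCDM 4 were higher and 3 lower, and in 2iL-F 1 and 4. In the same order, 36.7%, 21.9%, 32.2% and 28.1% of all lines were higher and 40.9%, 31.9%, 33.7% and 37.3% lower. The counts in 2iL and LCDM and the lower count in 2iL-F lay near these shares. The initiation factor gene Mtif3 rose by 0.80 in 2iL and 0.43 in LCDM, and Mtif2 by 0.64 in LCDM. The ribosome recycling factor Mrrf fell by 0.56, 0.49, 0.41 and 0.60 in 2iL, A2iL, LCDM and 2iL-F, from 13.1 TPM in SL. Qrsl1, a subunit of the amidotransferase that makes glutaminyl-tRNA in mitochondria, rose by 0.56 and 0.40 in 2iL and LCDM and fell by 0.32 in A2iL.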
